A study of Mus musculus with 8 samples.

Results

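The genes described here are 34 genes used to recognise endoderm, the layer of the embryo that gives rise to the yolk sac epithelium and to the lining of the gut and its organs. They were chosen by name and found among the 47729 genes of the count files through the gene symbols of the deposited comparison tables, and each name matched 1 gene. RNA was sequenced from E14TG2a cells, a line of mouse embryonic stem cells of strain 129/Ola, after 48 h in medium with 15% serum and LIF, the cytokine that holds such cells in self-renewal. The 8 libraries form 4 groups of 2. WT cells carry the genotype tag WT. QKO cells are tagged TCF7(-/-), TCF7L1(-/-), TCF7L2(-/-), LEF1(-/-), and the design text gives them as without full-length TCF/LEF factors, the DNA-binding partners of beta-catenin in Wnt signalling. QT7 and QT7L1 are QKO cells into which 1 copy of TCF7 or of TCF7L1 was returned, going by the titles. Their genotype tags read TCF7(-/-), TCF7L1(+/-) for QT7 and TCF7(+/-), TCF7L1(-/-) for QT7L1, which names the opposite factor, and both add TCF7L2(-/-), LEF1(-/-). Group names follow the titles, and which factor each line carries is not settled here. QKO, QT7 and QT7L1 are each represented by clone A and clone B, and WT by biological replicates whose origin is not detailed, so p-values measure only the spread between these samples.

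Primitive endoderm arises beside the epiblast in the blastocyst, under FGF signalling, through the transcription factors Gata6 and Gata4 and then Sox17 and Sox7. It forms parietal endoderm, which lays down a thick basement membrane, and visceral endoderm, which takes up maternal proteins through cubilin and megalin and secretes carriers such as alpha-fetoprotein and apolipoproteins. Definitive endoderm forms later, at the primitive streak, under Nodal and Wnt signalling, and is marked by Sox17, Foxa2 and Cxcr4. In RNA from a whole culture, more cells of a type and more RNA per cell cannot be told apart.

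Depth was 31573536 to 43362627 counts a library. Levels are CPM, counts scaled to a common library size with TMM factors. All 12 embryonic stem cell markers were present, with a summed level of 6595 to 8332 CPM. Of 12 fibroblast markers 10 passed 3 counts in some library, and their sum ran from 24.7 to 162 CPM, with Lum at 0 throughout. Tcf7 had 59.5 and 61.9 CPM for WT, 7.97 and 19.7 for QKO, 16.6 and 20.9 for QT7, and 10.1 and 12.7 for QT7L1. Tcf7l1 had 73.5 and 68.8 CPM for WT, 38.3 and 39.1 for QKO, 27.4 and 22.4 for QT7, and 36.9 and 27.5 for QT7L1. The QT7 pair lay above the QT7L1 pair in Tcf7 and, by a little, below it in Tcf7l1, and neither difference passed (0.72 ± 0.37, adjusted p = 0.509, and -0.37 ± 0.15, 0.420). Tcf7l2 ranged over 4.72 to 8.14 CPM and Lef1 over 0.212 to 6.57 CPM. Whole-gene counts do not show whether full-length transcript is made.

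Of the 34 endoderm genes 30 had enough counts to be tested, and Afp, Ttr, Apoc2 and Apoa2 did not. Afp, alpha-fetoprotein, and Ttr, the thyroid hormone carrier transthyretin, are products of visceral endoderm. Afp had 2 counts and Ttr 3 counts in QT7 replicate 1, and both had 0 in the 7 other libraries. Apoc2 had 0 counts in all 8, which allows up to 3 counts in each, and Apoa2 had 2 to 7 counts.

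Per kilobase of exon, the mean level over the 8 libraries was highest for Apoe (237 CPM per kb), then Sparc (129), Krt8 (15.9), Krt19 (10.7), Krt18 (8.82) and Gata4 (3.33). The lowest of the tested genes were Foxa1 (0.133), Plat (0.122) and Apob (0.0387 CPM per kb). Apoe and Sparc thus stood far above the transcription factors of the list.

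Promoter windows of 300 bases from RefSeq (GRCm38.p6) were at hand for 24 of the 34 genes. Since the groups differ in TCF/LEF factors, and Gata4 and Gata6 lead the primitive endoderm programme, each window was searched on both strands for a TCF/LEF core (CTTTGAA, else CTTTGAT, else CTTTGTA, else CTTTGTT) and for a GATA core (AGATAA, else TGATAA). The end of a TCF/LEF word can also open a GATA word, so that 1 stretch may match both. A TCF/LEF core occurred in 6 of the 24 genes, Apob, Apoe, Cubn, Foxa1, Foxa2 and Rbp4 (25%, against 19.0% of all 27025 genes in the table). A GATA core occurred in 6, Apoa1, Apoc2, Dab2, Foxa2, Hnf4a and Krt8 (against 20.96% of all genes). Such a match is a run of letters and does not measure binding. Windows are shown for the called genes with a match, Hnf4a, Apoe and Rbp4, and for the adaptor gene Dab2, 5′ to 3′ on the strand of the gene, with matches in capitals. They lie at chr2:163506607-163506906 (plus strand, the more upstream of 2 starts), chr7:19699139-19699438 (minus strand, the most upstream of 3), chr19:38125272-38125571 (minus strand, the more upstream of 2) and chr15:6299539-6299838 (plus strand, the more upstream of 2).
Hnf4a: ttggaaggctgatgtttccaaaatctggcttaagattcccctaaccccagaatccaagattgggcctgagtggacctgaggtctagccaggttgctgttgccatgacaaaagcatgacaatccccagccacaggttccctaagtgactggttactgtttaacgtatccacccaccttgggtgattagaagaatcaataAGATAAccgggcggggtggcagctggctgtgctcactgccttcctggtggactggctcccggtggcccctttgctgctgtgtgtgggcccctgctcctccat
Apoe: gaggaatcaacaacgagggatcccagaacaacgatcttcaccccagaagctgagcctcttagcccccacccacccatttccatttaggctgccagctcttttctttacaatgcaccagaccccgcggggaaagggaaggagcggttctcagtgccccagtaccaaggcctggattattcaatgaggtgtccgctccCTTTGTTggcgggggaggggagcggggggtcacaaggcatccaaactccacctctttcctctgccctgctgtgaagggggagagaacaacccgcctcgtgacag
Rbp4: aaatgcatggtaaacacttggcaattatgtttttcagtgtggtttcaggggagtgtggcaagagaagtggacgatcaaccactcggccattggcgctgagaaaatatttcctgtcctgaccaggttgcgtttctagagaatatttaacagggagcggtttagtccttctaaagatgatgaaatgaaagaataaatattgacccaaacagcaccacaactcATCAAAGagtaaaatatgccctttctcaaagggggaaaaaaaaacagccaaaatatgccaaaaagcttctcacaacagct
Dab2: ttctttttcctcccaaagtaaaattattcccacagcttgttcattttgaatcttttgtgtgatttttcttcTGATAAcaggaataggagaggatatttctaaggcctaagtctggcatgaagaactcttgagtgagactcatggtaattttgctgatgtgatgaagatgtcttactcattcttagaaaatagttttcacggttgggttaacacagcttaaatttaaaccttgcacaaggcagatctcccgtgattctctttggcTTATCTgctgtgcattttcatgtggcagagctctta

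A gene was called when its adjusted p was under 0.05 in the quasi-likelihood F test of edgeR. Of the 30 tested genes 11 were called in at least 1 of 6 comparisons: Sox7, Hnf4a, Hhex, Sparc, Plat, Apoe, Trf, Rbp4, Cxcr4, Fst and Krt19. How many of all genes were called in at least 1 comparison was not counted, so no share stands beside these 11. In QKO against WT, Sparc and Trf were higher (2 of 30, beside 11.7% of all 16515 genes), Hhex, Plat, Apoe and Krt19 were lower (4, beside 14.7%), and 24 did not pass (26.4% of all genes were called either way). Over the 30 genes the median log2 difference was -0.60, and over all genes -0.01. This median was not recomputed without WT replicate 2, where 9 of the 30 were over 2-fold higher than in WT replicate 1. In QT7 against QKO, Hnf4a, Plat, Apoe, Rbp4 and Cxcr4 were higher (5, beside 14.8%), 0 were lower (beside 12.1%) and 25 did not pass (26.9% of all genes were called); the medians were 0.29 and 0.05. At an unadjusted p under 0.05 there were 9 of the 30 (beside 39.9% of all genes). DESeq2 called 2 lower, with no share of all genes at hand, while Hnf4a, Apoe and Cxcr4 stayed higher in it. In QT7L1 against QKO, Hnf4a, Apoe, Rbp4 and Cxcr4 were higher (4, beside 15.9%), Sox7, Sparc and Fst were lower (3, beside 13.9%) and 23 did not pass (29.7% of all genes were called); the medians were -0.06 and 0.02. The shares called, 20%, 16.7% and 23.3%, did not exceed those of all genes. These comparisons share the QKO libraries.

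**Figure D1:**
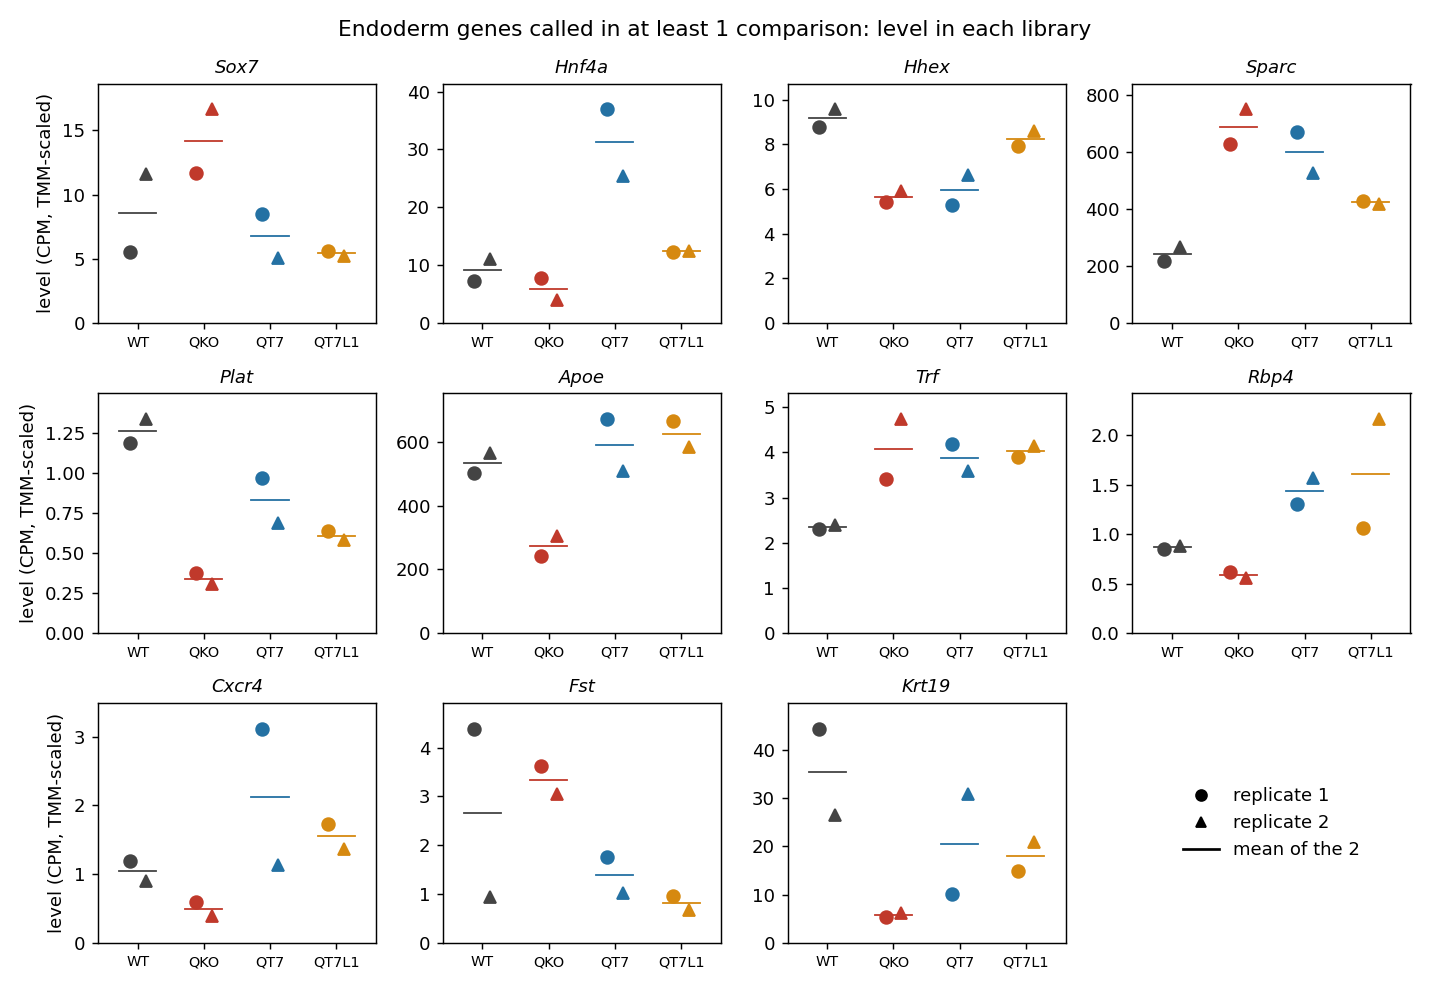
Level of the 11 called endoderm genes (CPM, TMM-scaled) in each of the 8 libraries, by group, with the mean of each pair. Apoe was lowest in both QKO libraries (243 and 306 CPM), Sparc lowest in both WT libraries (217 and 267 CPM) and Hnf4a highest in both QT7 libraries (36.9 and 25.5 CPM).

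Among the 10 transcription factors, 3 were called in at least 1 comparison: Hnf4a, Hhex and Sox7. No share of all genes stands beside this count. By comparison, 10% were called in QKO against WT, 10% in QT7 against QKO and 20% in QT7L1 against QKO (beside 26.4%, 26.9% and 29.7% of all genes). In QT7 against WT it was 10% (beside 4.62%). It was 0% in QT7 against QT7L1 (beside 0.00606%) and in QT7L1 against WT (beside 0.745%). Hnf4a is a nuclear receptor of visceral endoderm and liver that drives genes of lipid and carrier protein synthesis. Hnf4a levels were 7.29 and 11.1 CPM for WT, 7.82 and 4.02 for QKO, 36.9 and 25.5 for QT7, and 12.4 and 12.5 for QT7L1. Both QT7 libraries lay above all others, the QT7L1 pair lay just above WT, and WT overlapped QKO. Against QKO, Hnf4a rose in QT7 by 2.402 ± 0.33 (log2 difference ± SE, with adjusted p = 0.00201) and in QT7L1 by 1.08 ± 0.33 (adjusted p = 0.0364), and it was above WT in QT7 by 1.76 ± 0.32 (adjusted p = 0.0230). QKO differed from WT by -0.64 ± 0.33, which did not pass (adjusted p = 0.178). The call in QT7 against QKO held under all 13 alternatives. That in QT7L1 against QKO ended without QKO replicate 2 (adjusted p = 0.181) and without QT7L1 replicate 1 (0.115) or 2 (0.129), and that in QT7 against WT without WT replicate 1 (0.170), QT7 replicate 1 (0.0736), or QT7L1 replicate 1 (0.0512) or 2 (0.0518).

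Between QT7 and QT7L1, Hnf4a differed by 1.33 ± 0.32, which did not pass in edgeR (adjusted p = 0.207, and 9.86e-09 to 0.910 over the alternatives). It passed in 3 of 13: with no low-count filter, which gave the smallest p, in DESeq2 (1.33, adjusted p = 0.000894) and without QT7 replicate 2 (adjusted p = 0.0300). The authors' deposited table gives Hnf4a a log2 fold change of 1.123 with an adjusted p of 0.000624, QT7 over QT7L1. Deposited fold changes can be smaller than the mean levels give, so their size is not set against that of edgeR. The fibroblast marker Col1a2, for example, has 0.162 for QKO over QT7, with mean levels of 19.2 and 4.95 CPM. The Hnf4a window above holds a GATA core and no TCF/LEF core.

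Hhex is a homeobox factor of anterior definitive and visceral endoderm. Its levels were 8.76 and 9.56 CPM for WT, 5.40 and 5.93 for QKO, 5.31 and 6.64 for QT7, and 7.90 and 8.62 for QT7L1. WT lay above the 3 other groups, QKO overlapped QT7, and QT7L1 lay between them and WT. Hhex fell in QKO against WT (-0.69 ± 0.20, adjusted p = 0.0291). Each of the 4 libraries compared ended this call when left out (adjusted p = 0.0665 and 0.161 for WT replicates 1 and 2, 0.140 and 0.106 for those of QKO).

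Sox7, an SRY-type factor of primitive and parietal endoderm, had 5.54 and 11.6 CPM for WT, 11.7 and 16.7 for QKO, 8.47 and 5.06 for QT7, and 5.60 and 5.27 for QT7L1. The QKO libraries were the highest, with WT replicate 2 close behind, and WT replicate 1 lay with QT7L1. Sox7 fell in QT7L1 against QKO (-1.39 ± 0.37, adjusted p = 0.0221), while QT7 against QKO gave -1.07 ± 0.36 (adjusted p = 0.0559) and QKO against WT 0.72 ± 0.36 (0.169). The QT7 difference passed in 6 of 13 alternatives: DESeq2 (0.00594), the fit of QT7 and QKO alone (0.0464), no low-count filter (0.000103), and without WT replicate 1 (0.0222), WT replicate 2 (0.0229) or QT7 replicate 1 (0.0355). Whether QT7 and QT7L1 differ in Sox7 was tested directly and did not pass (0.31 ± 0.37, adjusted p = 0.777). The QT7L1 call ended without QKO replicate 2 (adjusted p = 0.131), QT7L1 replicate 1 (0.0989) or QT7L1 replicate 2 (0.121).

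Gata4, Gata6 and Sox17, which lead the primitive endoderm programme, were called in no comparison. Gata4 stood at 9.73 and 26.4 CPM for WT, 7.75 and 10.7 for QKO, 14.3 and 10.3 for QT7, and 11.99 and 12.8 for QT7L1. Gata6 stood at 2.75 and 8.63 CPM for WT, 3.41 and 4.60 for QKO, 8.14 and 4.16 for QT7, and 3.45 and 3.71 for QT7L1. Sox17 stood at 0.814 and 2.88 CPM for WT, 0.962 and 1.39 for QKO, 2.73 and 1.84 for QT7, and 0.817 and 1.01 for QT7L1. For all 3 genes WT replicate 2 was the highest library, while WT replicate 1 lay within or below the QKO pair, so WT overlapped QKO or enclosed it. QKO differed from WT by -0.98 ± 0.42 for Gata4 (adjusted p = 0.125), -0.52 ± 0.51 for Gata6 (0.489) and -0.67 ± 0.52 for Sox17 (0.371). Without WT replicate 2 these became -0.08, 0.54 and 0.53, and without WT replicate 1 -1.52, -1.11 and -1.29, where Gata4 passed (adjusted p = 0.00624). Gata4 also passed in DESeq2 (adjusted p = 0.0194) and with no low-count filter (5.10e-05).

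Foxa2, the forkhead factor of definitive and visceral endoderm, had 0.469 and 1.22 CPM for WT, 0.527 and 0.859 for QKO, 0.791 and 0.506 for QT7, and 0.303 and 0.304 for QT7L1, or 10 to 54 counts a library. The QT7L1 pair was the lowest and overlapped no other group, but no comparison passed (smallest adjusted p = 0.134). The forkhead factors Foxa1 and Foxa3 ranged over 0.242 to 0.816 and 0.944 to 3.12 CPM, the coregulator Cited1 over 0.609 to 1.496 CPM, and none of the 3 was called.

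**Figure D2:**
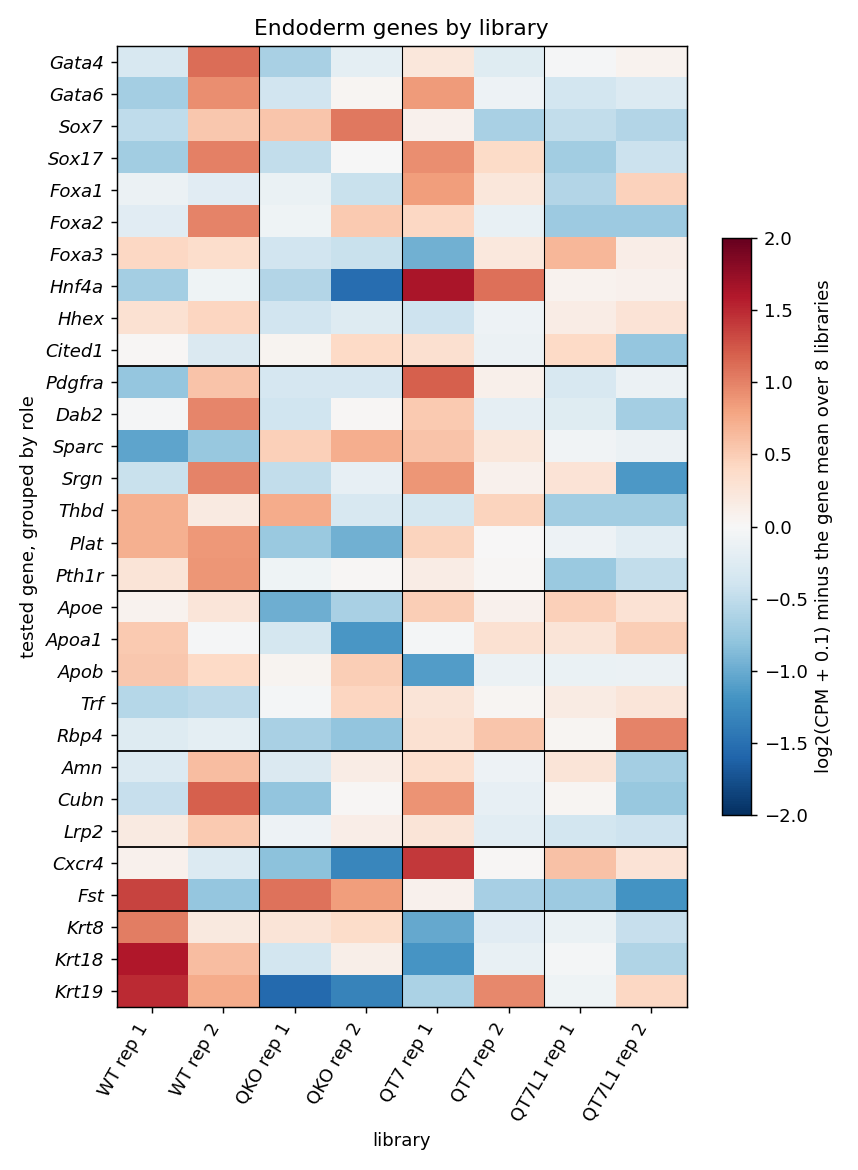
Level of the tested endoderm genes in each library relative to the mean of the gene over the 8 libraries (log2 scale), with genes ordered by role and libraries by group. Gata4, Gata6 and Sox17 are highest in WT replicate 2, and Sparc is lowest in both WT libraries.

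Sparc is a secreted matrix glycoprotein, abundant in parietal endoderm and also made by fibroblasts. Its levels were 217 and 267 CPM for WT, 627 and 750 for QKO, 671 and 528 for QT7, and 430 and 419 for QT7L1. WT lay below all other libraries, QKO overlapped QT7, and QT7L1 lay between WT and these. Against WT, Sparc rose in QKO (1.51 ± 0.15, adjusted p = 0.000615), in QT7 (1.31 ± 0.14, 0.00320) and in QT7L1 (0.81 ± 0.14, 0.0392), and it fell in QT7L1 against QKO (-0.70 ± 0.14, 0.00681). The rises in QKO and QT7 held under all 13 alternatives, with adjusted p up to 0.00704 and 0.0318. The summed fibroblast markers were 103 and 55.0 CPM for WT, 162 and 39.4 for QKO, 25.2 and 52.0 for QT7, and 24.7 and 33.2 for QT7L1. Of the 9 fibroblast markers tested only Thy1, a surface glycoprotein, was called, higher than WT in QKO (1.02 ± 0.20, adjusted p = 0.00566) and QT7 (0.90 ± 0.20, 0.0337). Thy1 had 7.98 and 11.5 CPM for WT, 20.4 and 19.2 for QKO, 17.3 and 19.2 for QT7, and 17.98 and 14.4 for QT7L1, lowest in both WT libraries as Sparc was, whereas the sum was not. Over the 9 tested markers the median log2 difference from WT was 0.008 in QKO, -1.84 in QT7 and -2.71 in QT7L1. Of the 9, 6, 2 and 2 lay above 0 in that order. The part of these markers in the Sparc values was not tested. The fall in QT7L1 ended without QKO replicate 2 (adjusted p = 0.0593) or QT7L1 replicate 2 (0.0570), and the rise in QT7L1 against WT without WT replicate 1 (0.267), QKO replicate 1 (0.0507), QT7L1 replicate 1 (0.275) or QT7L1 replicate 2 (0.231).

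Plat, tissue plasminogen activator, is a protease that parietal endoderm secretes. Levels of Plat were 1.19 and 1.34 CPM for WT, 0.372 and 0.305 for QKO, 0.969 and 0.690 for QT7, and 0.636 and 0.578 for QT7L1, with 11 and 12 counts in the QKO libraries. No group overlapped another, with QKO the lowest and WT the highest. Plat fell in QKO against WT (-1.90 ± 0.38, adjusted p = 0.00685) and rose in QT7 against QKO (1.29 ± 0.39, 0.0343). The fall ended without WT replicate 2 (adjusted p = 0.0522) or QKO replicate 2 (0.0660). The rise held in 4 of 13 alternatives: it ended in DESeq2 (0.143), in a fit of QT7 and QKO alone (0.0926) and without any 1 library other than QT7 replicate 2 (0.0502 to 0.183).

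Pdgfra, the receptor on which primitive endoderm cells depend for survival, had 3.79 and 9.70 CPM for WT, 5.12 and 5.15 for QKO, 15.1 and 6.99 for QT7, and 5.21 and 5.997 for QT7L1. QT7 replicate 1 was the highest library and WT replicate 1 the lowest, and WT enclosed QKO. QKO differed from WT by -0.40 ± 0.46 (adjusted p = 0.560), and by 0.44 without WT replicate 2. Pdgfra passed in no comparison in edgeR (smallest adjusted p = 0.112). The authors' deposited table gives it a log2 fold change of -0.798 for QKO over QT7, with an adjusted p of 0.0306. As with Hnf4a, the size of this fold change is not set against that of edgeR. The endocytic adaptor Dab2 ranged over 8.37 to 26.7 CPM, the proteoglycan core Srgn over 2.41 to 10.9, the thrombin receptor Thbd over 0.363 to 1.15 and the parathyroid hormone receptor Pth1r over 1.60 to 5.14. None of these was called. Pth1r in QT7L1 against WT gave -1.27 ± 0.29 (adjusted p = 0.0827). It passed in 5 of 13 alternatives: DESeq2 (0.0212), the fit of QT7L1 and WT alone (0.0321), no low-count filter (0.00274), and without QT7 replicate 1 (0.0367) or 2 (0.0379).

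Apoe encodes apolipoprotein E, a lipid carrier made by visceral endoderm, liver and macrophages. Apoe levels were 502 and 565 CPM for WT, 243 and 306 for QKO, 673 and 509 for QT7, and 668 and 585 for QT7L1. Both QKO libraries lay below the other 6, and those 6 lay within 502 to 673 CPM. Apoe fell in QKO against WT (-0.96 ± 0.16, adjusted p = 0.00342) and rose against QKO in QT7 (1.11 ± 0.16, 0.00189) and in QT7L1 (1.19 ± 0.16, 0.00131). All 3 calls held under the 13 alternatives, with adjusted p up to 0.0332, 0.0148 and 0.0128. QT7 and QT7L1 differed from WT by 0.15 ± 0.15 and 0.23 ± 0.15, neither called (adjusted p = 0.665 and 0.519).

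Rbp4 is the plasma carrier of retinol. Rbp4 gave 0.845 and 0.884 CPM for WT, 0.620 and 0.554 for QKO, 1.30 and 1.56 for QT7, and 1.06 and 2.16 for QT7L1, from 20 to 71 counts. QKO was the lowest group, and all QT7 and QT7L1 libraries lay above WT. Rbp4 rose against QKO in QT7 (1.28 ± 0.40, adjusted p = 0.0383) and in QT7L1 (1.45 ± 0.40, 0.0227). In QT7 the call held in 6 of 13 alternatives, and ended in DESeq2 (0.0824), in a fit of QT7 and QKO alone (0.0565), and without WT replicate 1 (0.0530) or 2 (0.0537), QKO replicate 1 (0.116) or 2 (0.180) or QT7 replicate 2 (0.0950). In QT7L1 it ended without QKO replicate 1 (0.0793) or 2 (0.127) or QT7L1 replicate 2 (0.213).

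Trf, the iron carrier transferrin, had 2.32 and 2.402 CPM for WT, 3.41 and 4.74 for QKO, 4.18 and 3.59 for QT7, and 3.91 and 4.14 for QT7L1. WT lay below the other 6 libraries, which overlapped. Trf rose in QKO against WT (0.79 ± 0.25, adjusted p = 0.0432). The call ended with the replicate number as a block (0.0506) and without WT replicate 1 (0.138) or 2 (0.167), QKO replicate 1 (0.0547) or 2 (0.296), or QT7L1 replicate 1 (0.0679) or 2 (0.0679). The apolipoproteins Apoa1 (1 to 11 counts) and Apob (7 to 31 counts) were tested and not called.

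**Figure D3:**
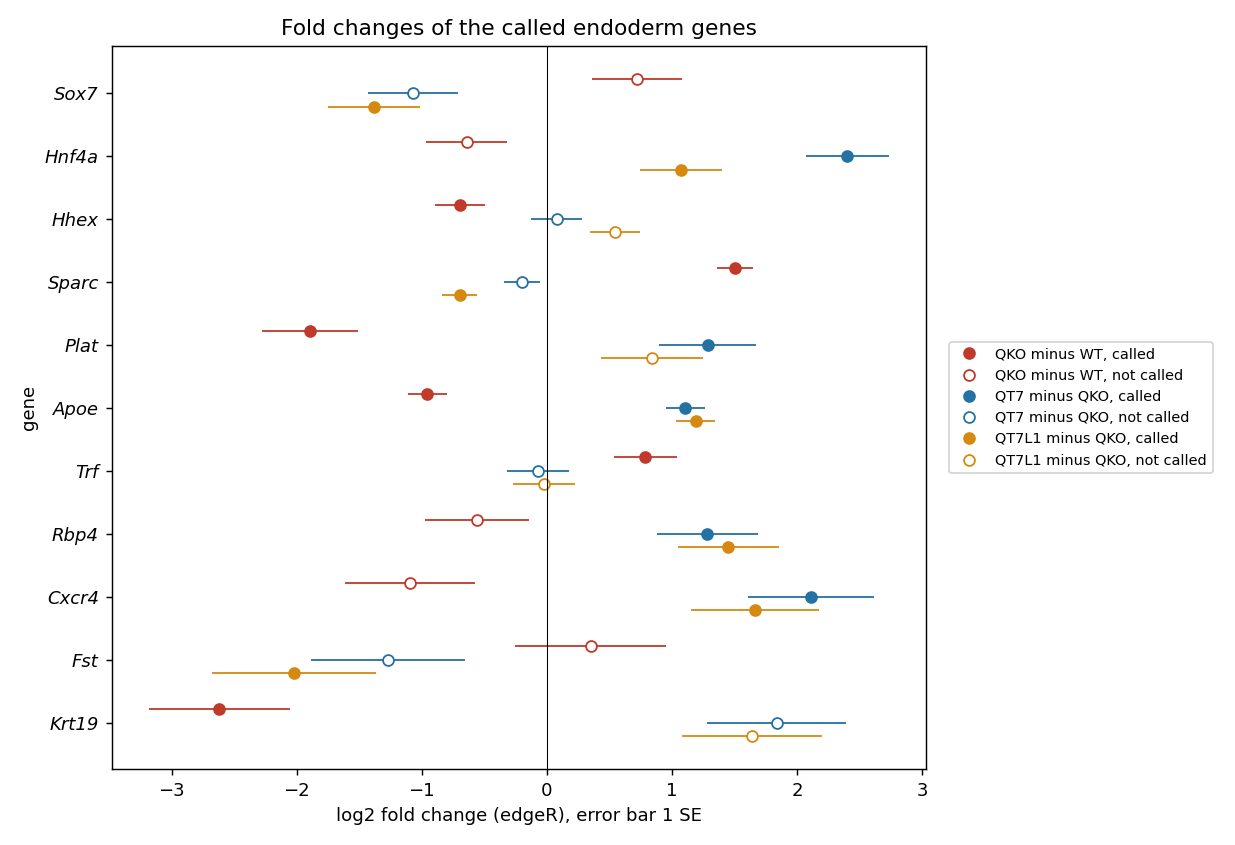
Log2 fold change with its SE for the 11 called genes in QKO against WT, QT7 against QKO and QT7L1 against QKO; filled points were called by edgeR and open points were not. Apoe was called in all 3, at -0.96, 1.11 and 1.19.

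The endocytic receptors of visceral endoderm were not called. Cubn, cubilin, showed 9.48 and 29.9 CPM for WT, 7.54 and 13.3 for QKO, 24.3 and 11.7 for QT7, and 13.4 and 7.64 for QT7L1. WT replicate 2 and QT7 replicate 1 were high and the 6 others lay within 7.54 to 13.4 CPM, so the groups overlapped. QKO against WT was -0.92 ± 0.67 (adjusted p = 0.362), -1.52 without WT replicate 1 and 0.14 without WT replicate 2, and it passed in 1 of 13 alternatives, that with no low-count filter (7.75e-05). Amn, which carries cubilin to the membrane, ranged over 1.67 to 4.28 CPM, and Lrp2, megalin, over 32.7 to 62.6 CPM. For Lrp2, QT7L1 against WT was -0.75 ± 0.17 (adjusted p = 0.0926). This passed in the same 5 alternatives as Pth1r: DESeq2 (0.00289), the fit of QT7L1 and WT alone (0.00887), no low-count filter (3.01e-05), and without QT7 replicate 1 (0.0158) or 2 (0.0169).

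Cxcr4, a chemokine receptor of definitive endoderm and other migrating cells, had 1.19 and 0.907 CPM for WT, 0.589 and 0.388 for QKO, 3.11 and 1.13 for QT7, and 1.73 and 1.37 for QT7L1. QKO was the lowest group, and QT7 replicate 2 lay inside the WT pair. Cxcr4 rose against QKO in QT7 (2.11 ± 0.50, adjusted p = 0.0128) and QT7L1 (1.66 ± 0.51, 0.0331). The first call ended without QT7 replicate 1 (1.22, adjusted p = 0.0639) or QKO replicate 2 (0.109). The second ended without QKO replicate 1 (0.0766) or 2 (0.193) or QT7L1 replicate 1 (0.142) or 2 (0.0882).

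Fst, follistatin, binds and blocks activin. Fst levels were 4.38 and 0.929 CPM for WT, 3.63 and 3.05 for QKO, 1.76 and 1.01 for QT7, and 0.969 and 0.670 for QT7L1. WT replicate 1 and both QKO libraries were high, WT replicate 2 was low, and WT overlapped every group. Fst fell in QT7L1 against QKO (-2.02 ± 0.66, adjusted p = 0.0480), a call that ended without QKO replicate 1 (0.153) or 2 (0.131), QT7 replicate 1 (0.0596) or 2 (0.0584), or QT7L1 replicate 1 (0.132) or 2 (0.212). The fibroblast sums given beside Sparc were also highest in QKO replicate 1 and WT replicate 1. In QKO replicate 2, with Fst at 3.05 CPM, the sum was 39.4 CPM. That lay below WT replicate 2 and QT7 replicate 2 (55.0 and 52.0 CPM), where Fst was 0.929 and 1.01 CPM. The part of the fibroblast markers in the Fst values was not tested.

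The keratins Krt8, Krt18 and Krt19 build the intermediate filaments of simple epithelia, among them endoderm and trophoblast. Krt19 levels were 44.4 and 26.5 CPM for WT, 5.30 and 6.18 for QKO, 10.1 and 30.9 for QT7, and 14.8 and 21.0 for QT7L1. Both QKO libraries lay below the other 6. Krt19 fell in QKO against WT (-2.62 ± 0.57, adjusted p = 0.0203), a call that ended without any of the 4 libraries compared (0.0631 and 0.0583 for WT replicates 1 and 2, 0.109 and 0.116 for QKO). Against QKO it gave 1.84 ± 0.56 in QT7 (adjusted p = 0.0547) and 1.64 ± 0.56 in QT7L1 (0.0715), which passed in 3 and 5 of 13 alternatives. Both passed in DESeq2 (0.0169 and 0.0340), with no low-count filter (3.37e-19 and 2.63e-15) and without QT7 replicate 1 (0.00234 and 0.00305), and the second also without QT7 replicate 2 (0.00264) and in the fit of QT7L1 and QKO alone (0.000133).

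Krt8 ranged over 14.0 to 58.3 CPM and Krt18 over 4.69 to 33.0 CPM, each lowest in QT7 replicate 1 and highest in WT replicate 1. Krt18 gave -1.31 ± 0.43 in QKO against WT (adjusted p = 0.0571) and -1.78 ± 0.44 in QT7 against WT (0.0629), and Krt8 gave -1.23 ± 0.32 in QT7 against WT (0.0773). These passed in 6, 4 and 4 of 13 alternatives, among them DESeq2 (0.00107, 1.24e-05 and 0.000103), no low-count filter, and without WT replicate 2 (0.0461, 0.0459 and 0.0403) or QT7 replicate 2 (0.0294, 0.0249 and 0.0213). Krt18 in QKO against WT passed as well without QT7 replicate 1 (0.0308) and in the fit of those groups alone (0.0441). Of 10 trophoblast markers 7 passed 3 counts in some library, Tpbpa was at 0, and the summed level was 49.5 and 41.4 CPM for WT, 27.1 and 26.9 for QKO, 55.0 and 40.8 for QT7, and 53.0 and 31.8 for QT7L1. Of the 6 trophoblast markers tested, 1 rose, 2 fell and 3 did not pass in QKO against WT: the factor Gata3 rose (2.42 ± 0.72, adjusted p = 0.0357), and the keratin Krt7 (-2.47 ± 0.64, 0.0210) and the factor Ascl2 (-0.65 ± 0.22, 0.0481) fell. Against QKO, 3 rose and 1 fell in QT7, and 2 rose and 2 fell in QT7L1; Krt7 rose (2.20 ± 0.64, 0.0317, and 2.53 ± 0.64, 0.0172), as did Ascl2 (1.16 ± 0.22, 0.00463, and 1.14 ± 0.22, 0.00446), while the trophoblast factor Cdx2 fell in both (-2.52 ± 0.64, 0.0180, and -2.395 ± 0.65, 0.0217) and Gata3 fell in QT7L1 (-3.60 ± 0.82, 0.0114). Gata3 had only 22 and 84 counts in QKO and 6 and 2 in QT7L1, and Krt7 had 14 and 5 in QKO. Of all genes 26.4% were called in QKO against WT, and 26.9% and 29.7% in QT7 and QT7L1 against QKO. The part of the trophoblast markers in the keratin values was not tested.

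Several of the genes differed widely within the WT pair. In WT, 9 of the 30 tested genes were over 2-fold higher in replicate 2 than in replicate 1, beside 1.87% of all genes. They were Sox17 (log2 difference 1.76), Cubn (1.65), Gata6 (1.63), Srgn (1.44), Gata4 (1.44), Pdgfra (1.35), Foxa2 (1.29), Sox7 (1.06) and Dab2 (1.01). Fst alone was over 2-fold higher in replicate 1 (-2.17, beside 2.33% of all genes). Of 8 basement membrane genes, the type IV collagen chains Col4a1 (95.9 and 270 CPM) and Col4a2 (44.5 and 122 CPM) were also over 2-fold higher in replicate 2. These were named after their values were seen. Of the 12 tested genes of a further endoderm list, described below, 1 was over 2-fold higher in replicate 2 and 2 in replicate 1. None of the 12 embryonic stem cell markers differed by 2-fold. A difference between 2 libraries has no test.

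For replicate 2 minus replicate 1, the median over the 30 genes was 0.17 in WT, 0.25 in QKO, -0.46 in QT7 and -0.02 in QT7L1. Over all genes it was 0.011, 0.012, 0.0008 and 0.005 in that order. The 12 tested genes of the further endoderm list had a median of -0.62 in QT7, with 4 over 2-fold higher in replicate 1 and 0 in replicate 2. Among the 30 genes in QT7, Cxcr4 (-1.42), Pdgfra (-1.10) and Cubn (-1.06) were over 2-fold higher in replicate 1 (beside 4.18% of all genes). Krt19 (1.60), Foxa3 (1.21), Apob (1.14) and Krt18 (1.04) were so in replicate 2 (beside 3.85%). In QKO, Apoa1 and Thbd were over 2-fold higher in replicate 1 (beside 2.69%) and 0 genes in replicate 2 (beside 1.73%). In QT7L1, Srgn and Cited1 were higher in replicate 1 (beside 2%) and Foxa1 in replicate 2 (beside 1.93%).

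**Figure D4:**
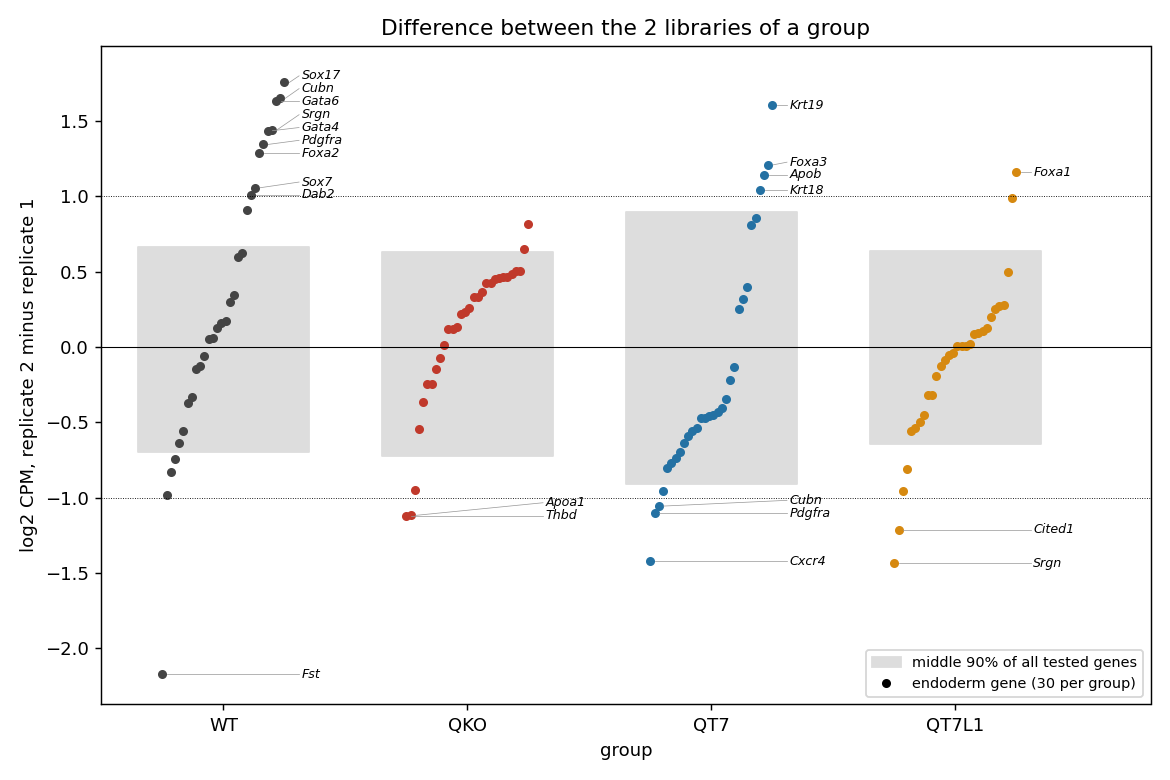
Log2 CPM of replicate 2 minus replicate 1 for each of the 30 tested endoderm genes, by group; dotted lines mark 2-fold and the grey box the middle 90% of all tested genes. In WT, 9 genes lie above the upper line, up to Sox17 at 1.76.

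QT7 and QT7L1 were also set against each other and against WT. In QT7 against QT7L1 edgeR called 0 of the 30 (beside 0.00606% of all genes, 0% higher and 0.00606% lower), 6 had an unadjusted p under 0.05 (beside 11.1%), and DESeq2 called 1, Hnf4a. In QT7 against WT, Hnf4a and Sparc were higher (2, beside 2.37%), 0 were lower (beside 2.25%) and 28 did not pass (4.62% of all genes were called). Here 7 had an unadjusted p under 0.05 (beside 20.2%), and DESeq2 called 2 lower, while Hnf4a and Sparc stayed higher in it. In QT7L1 against WT, Sparc was higher (1, beside 0.297%), 0 were lower (beside 0.448%) and 29 did not pass (0.745% of all genes were called). In that comparison 12 of the 30 had an unadjusted p under 0.05 (beside 15.4% of all genes), and DESeq2 called 5 lower, while Sparc stayed higher in it. The shares called by edgeR, 0%, 6.67% and 3.33%, were above those of all genes in the last 2, from 2 genes and 1 gene. Median log2 differences over the 30 genes were 0.44, -0.24 and -0.67 in this order, against 0.00, 0.01 and 0.00 over all genes. Those against WT were not recomputed without WT replicate 2.

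Further genes of these pathways came from lists drawn up beside the endoderm genes. Of all genes 26.4% were called in QKO against WT, 26.9% and 29.7% in QT7 and QT7L1 against QKO, and 4.62% in QT7 against WT. Of 8 basement membrane genes, 2 fell and 6 did not pass in QKO against WT: the laminin chain Lamb1 (-0.92 ± 0.17, adjusted p = 0.00503) and the proteoglycan Hspg2 (-0.73 ± 0.21, 0.0385). The median was -0.63, and over all genes -0.01. All 8 were higher in WT replicate 2 than in WT replicate 1, beside 8527 of all 16515 genes. Against QKO, 3 rose in QT7, Lamb1 (0.56 ± 0.17, 0.0332) and the nidogens Nid1 (0.52 ± 0.12, 0.0120) and Nid2 (0.54 ± 0.14, 0.0204), and 2 rose in QT7L1, Nid1 (0.42 ± 0.12, 0.0250) and Nid2 (0.59 ± 0.14, 0.0133). Of 16 other endoderm genes 12 were tested. In QKO against WT the protease Dpp4 rose (1.59 ± 0.48, 0.0441), the carbonic anhydrase Car4 fell (-1.92 ± 0.28, 0.00179) and 10 did not pass. Against QKO, the ligand gene Bmp2 fell in QT7 (-1.85 ± 0.55, 0.0317; 11 did not pass), and in QT7L1 Bmp2 (-2.27 ± 0.60, 0.0175) and Dpp4 (-1.64 ± 0.48, 0.0370) fell, Car4 rose (0.93 ± 0.28, 0.0307) and 9 did not pass. In QT7 against WT, Eomes, a factor of the primitive streak, was higher (0.86 ± 0.20, 0.0430) and Car4 lower (-1.43 ± 0.27, 0.0213). Cer1, an inhibitor secreted by anterior endoderm, had 0 counts in all 8 libraries.

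Of 16 genes of the FGF and Nodal signals that induce endoderm, 1 rose, 5 fell and 10 did not pass in QKO against WT, with a median of -0.05. The shares of all genes called were 26.4% there, and 26.9% and 29.7% in QT7 and QT7L1 against QKO. Fgfr2, an FGF receptor of primitive endoderm, had 15.2 and 21.5 CPM for WT, 3.47 and 4.16 for QKO, 5.54 and 7.38 for QT7, and 7.05 and 4.93 for QT7L1. WT lay above all other libraries. Fgfr2 fell in QKO against WT (-2.26 ± 0.27, adjusted p = 0.000866) and was below WT in QT7 (-1.51 ± 0.26, 0.0134) and QT7L1 (-1.61 ± 0.26, 0.0266). Fgfr1 (-0.60 ± 0.10, 0.00287), the Nodal and activin receptor Acvr1b (-0.54 ± 0.12, 0.00869) and the Nodal coreceptor Tdgf1 (-0.52 ± 0.14, 0.0222) fell in QKO too. Against QKO, 4 of the 16 rose and 3 fell in QT7, and 5 rose and 2 fell in QT7L1; Acvr1b rose in both (0.89 ± 0.12, 0.00127, and 0.95 ± 0.12, 0.000922).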

How the data were processed

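The genes and lists were chosen with earlier results of these data known. The submitters' processing notes name bcl2fastq 1.8.4, STAR 2.4.0f1, HTSeq, DESeq2 (listed as 2.1.8.3) and mouse build mm10 (GRCm38); strand and multi-mapping settings of HTSeq were not found in the labels or headers. Per the labels, the library kit was stranded and poly(A)-based with an input of 250 ng RNA. The authors deposited raw counts per Ensembl gene. Per the file headers, their comparison tables hold a base mean (a normalised signal), log2 fold changes with errors, a test score and p-values. Gene symbols came from these tables, where 27 symbols, none of them of a gene listed here, read as dates or numbers.

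In R 4.3.3, edgeR 4.0.16 kept 16515 genes (filterByExpr), scaled by TMM (factors 0.955 to 1.028) and fitted 1 robust quasi-likelihood model over the 8 libraries (4 residual degrees of freedom), with Benjamini-Hochberg adjustment over all genes of a comparison. The SE was derived from the F statistic and the fold change. Replicate differences use log2 CPM with a prior count of 2, and exon lengths are GENCODE M21 unions. The fit was tested on simulated data. The 13 alternatives were DESeq2 size factors, DESeq2 1.42.0, no low-count filter, a fit of the compared groups, the replicate number as a block, and each of 8 libraries left out. Single genes were followed through them only for the endoderm genes described here, not for genes of the other lists. Genes called in any comparison, with Gata4, Gata6, Sox17, Foxa2, Pdgfra, Afp and Cubn, are given by library and the rest by range; genes named with a test from the trophoblast, fibroblast, basement membrane, other endoderm and signal lists are the called genes with the smallest adjusted p over the 6 comparisons, at most 4 a list, and Col4a1 and Col4a2 fall outside that rule.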

Additional observations from a re-analysis of the deposited data

How the results depend on the processing

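Of 21 calls of single endoderm genes, 6 held under all 13 alternatives (Apoe in 3 comparisons, Sparc in QKO and QT7 against WT, and Hnf4a in QT7 against QKO), and none of the 21 changed direction. Of the uncalled differences given above, QKO against WT turned sign without WT replicate 2 for Gata6 (0.54), Sox17 (0.53), Pdgfra (0.44) and Cubn (0.14); without WT replicate 1 they were -1.11, -1.29, -0.92 and -1.52. With single libraries left out, the endoderm genes called higher and lower numbered 1 to 2 and 1 to 7 in QKO against WT, 2 to 5 and 0 to 3 in QT7 against QKO, 1 to 7 and 0 to 3 in QT7L1 against QKO, 0 to 3 and 0 to 1 in QT7 against QT7L1, 1 to 3 and 0 to 6 in QT7 against WT, and 0 to 1 and 0 to 2 in QT7L1 against WT. All genes called then numbered 1310 to 5493, 1478 to 4270, 1773 to 5982, 0 to 1396, 50 to 1914 and 0 to 517 in the same order. For the settings that follow, only counts that moved from the main fit by over 1.5 times, or to or from 0, are given. A count or direction not named is therefore not 0 for that reason. No share of all genes stands beside these counts, so they are not read as a result about the endoderm genes. Without a low-count filter, 11 endoderm genes were lower in QKO against WT, 10 higher and 3 lower in QT7 against QKO, 5 lower in QT7L1 against QKO, 7 higher in QT7 against QT7L1, 3 lower in QT7 against WT and 8 lower in QT7L1 against WT, and all genes called were 1030, 2203 and 1248 in the last 3. In fits of the compared groups only, 3 were higher and 2 lower in QT7 against QKO, 7 higher and 5 lower in QT7L1 against QKO and 2 lower in QT7L1 against WT, and all genes called were 19 in QT7 against QT7L1, 122 in QT7 against WT and 655 in QT7L1 against WT. DESeq2 called 2 lower in QT7 against QKO, 1 higher in QT7 against QT7L1, 2 lower in QT7 against WT and 5 lower in QT7L1 against WT, with 235, 1300 and 568 of all genes in the last 3. The cause of these differences between settings was not tested. Some calls of higher genes held in DESeq2. They were Hnf4a, Apoe and Cxcr4 in QT7 against QKO, Hnf4a and Sparc in QT7 against WT, and Sparc in QT7L1 against WT. With the replicate number as a block, 1 endoderm gene was higher in QKO against WT (main 2), 1 was lower in QT7 against QKO (main 0) and 2 of all genes were called in QT7 against QT7L1 (main 1). The numbers are not stated to pair clones between groups, and differences of replicate 1 from 2 correlated at -0.21 to 0.16 across genes between pairs of groups. DESeq2 size factors moved no count by over 1.5 times. By adjusted p under 0.05, the authors' deposited tables alone gave Krt8, Pdgfra and Sox7 in QT7 against QKO and Hnf4a in QT7 against QT7L1. They alone also gave Krt18 and Krt8 in QT7 against WT, and Dab2, Krt8, Lrp2 and Pth1r in QT7L1 against WT. Called only here were Trf in QKO against WT, Plat and Rbp4 in QT7 against QKO, and Cxcr4 and Rbp4 in QT7L1 against QKO. Depth limits genes with few counts, such as Plat with 11 and 12 in QKO.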
